A study of Sus scrofa with 67 samples.

Results

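The endometrium, the inner lining of the uterus, was compared between day 6 and day 3 of the pig oestrous cycle across every gene of the deposited count table. The comparison used all libraries labelled endometrium and day 6 (3 libraries) or endometrium and day 3 (3 libraries), which are 6 of the 66 libraries in the table. The series has 67 labelled samples, and 1 sample labelled endometrium and day 12 was not used here. Of the 25322 genes listed, 15341 had enough counts in the 22 endometrium libraries to be tested, and 9965 of these could be paired with a gene symbol. The series sampled endometrium, ovary and oviduct on 7 days of the cycle from day 0 to day 18, where day 0 is the day on which a gilt (a young female pig) was seen in oestrus. All groups were untreated, normally cycling crossbred Landrace × Yorkshire gilts of similar age that had cycled before, and the tissues were collected at hysterectomy. The endometrium was dissected from the myometrium in the middle of the uterine horns, so each library holds RNA of epithelium, glands, stroma, vessels and immune cells together. Libraries of different days came from different gilts, and the p-values rest on the spread between libraries within a day, pooled over all 22 endometrium libraries. The methods name 3 gilts per day, fewer than the endometrium libraries of day 15, so whether each library is a separate gilt is not settled.

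Around oestrus, the endometrium is exposed to oestrogens from the ovarian follicles. After ovulation the follicles become corpora lutea, which secrete progesterone, and the endometrium turns from growth to secretion: its glands release histotroph, the mixture of proteins and nutrients that feeds an early conceptus before it attaches. Progesterone and oestrogens act mainly through nuclear receptors that bind DNA, and days 3 and 6 span the rise of luteal progesterone.

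Total counts were between 8968120 and 11192826 in the day 3 libraries and between 9474617 and 11214551 in the day 6 libraries, and the 10 most counted genes held between 9.09% and 11.7% of them. Values are given as CPM (counts per 1000000 counts of a library) with TMM scaling, which sets libraries to the same level over most genes. At these depths 3 counts, used as the floor of detection, correspond to between 0.253 and 0.337 CPM, and this floor covers counting error only. Pearson's r of log2 CPM across genes was between 0.950 and 0.973 within day 3, between 0.962 and 0.976 within day 6, and between 0.895 and 0.930 across the days. The day 3 library numbered 3 stood closest to day 6: it was the nearest of the day 3 libraries to the day 6 mean for 1698 of the genes that differed (58.6%), against 444 for the library numbered 1 and 756 for the library numbered 2. It also had a summed level of the 25 tested cell cycle genes of 1844 CPM, against between 500.1 and 1215 CPM in the other 5 libraries. Several of the counts that change with this library, though not all, are given with and without it.

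The labelled tissue held its markers in all 6 libraries. The 9 markers of luminal and glandular epithelium summed to between 2680 and 2976 CPM on day 3 and between 3023 and 5949 CPM on day 6, and the 9 markers of stroma to between 9867 and 11627 CPM and between 6437 and 7312 CPM. Smooth muscle markers, which would come from myometrium, summed to between 325.8 and 989.7 CPM on day 3 and between 375.8 and 582.8 CPM on day 6, and 0 of 8 were called (edgeR, with 2 at an unadjusted p under 0.05, and 0 with DESeq2). Of the 8 ovarian markers found, 2 had enough counts to be tested, and 0 of 2 were called in edgeR (1 at an unadjusted p under 0.05), against 1 of 2 higher with DESeq2, without the day 15 libraries, and without the day 6 library numbered 1.

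Between day 3 and day 6, 2898 genes (18.9% of those tested) differed at an adjusted p under 0.05 after Benjamini-Hochberg adjustment over all of them, in the quasi-likelihood test of edgeR that is used throughout. Of these, 1359 were higher on day 6 (8.86%) and 1539 were lower (10%). The libraries of the days did not overlap for 2802 of the called genes, and 38.9% of all genes tested had libraries that did not overlap. The median log2 fold change was 1.19 among the genes called higher and -1.41 among those called lower, against -0.01 over all genes tested. A log2 change of at least 2 was reached by 330 higher genes (2.15%) and 385 lower genes (2.51%). Beyond a log2 change of 3, rises (166) outnumbered falls (118). Without the day 3 library numbered 3, 2801 genes were called, of which 2390 were among the 2898. Leaving out the day 3 library numbered 1 gave 1753 calls, and leaving out the day 6 library numbered 2 gave 1800.

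**Figure D1:**
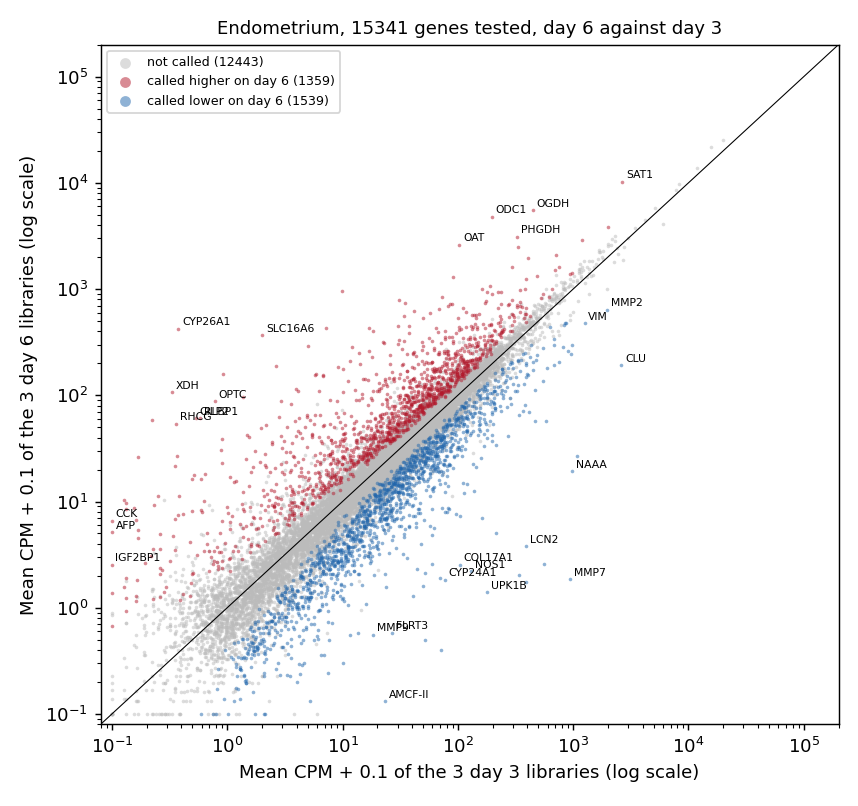
Mean CPM + 0.1 of each tested gene in the 3 day 3 libraries (x axis, log scale) against the 3 day 6 libraries (y axis, log scale), with the 1359 genes called higher on day 6 in red, the 1539 called lower in blue and the rest in grey. Most of the genes with the largest rises start near or under 1 CPM on day 3, toward the left edge, and MMP7, NAAA and CLU lie far below the line of equal level.

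The share of genes called depended on their level. Among the 2188 genes with a mean of at least 100 CPM over the 6 libraries, 18.4% were higher and 7.18% were lower on day 6. Among the 4418 genes between 1 and 10 CPM the order was the opposite, with 4.35% higher and 12.1% lower. The 740 genes with a mean under 1 CPM over the ovary libraries and over the oviduct libraries had 72 higher (9.73%) and 50 lower (6.76%). The medians of these were 3.80 and -2.70 on the log2 scale. Such medians were not particular to this group. The called genes among the 978 with a mean under 1 CPM in the endometrium had medians of 3.86 and -2.47.

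The genes named first were called, had a symbol (2001 of the 2898 called genes), did not overlap between the days and had at least 10 counts in every library of the higher day. The 10 largest rises in log2 change by this rule began from low levels on day 3. CYP26A1, which breaks down retinoic acid, was at 0.337, 0.302 and 0.195 CPM in the day 3 libraries numbered 1 to 3 and at 49.6, 600.4 and 625 CPM in the day 6 libraries (log2 change 10.51 ± 1.52 SE, adjusted p = 0.000284). Log2 changes are given in this form, with their standard error, from here on. The day 6 library numbered 1 was the lowest of its group for CYP26A1, and it was still far above every day 3 library. The day 3 levels of CYP26A1 rest on 4, 3 and 2 counts, at or near the floor, so the size of its rise is uncertain. XDH, xanthine dehydrogenase of purine breakdown, went from 0.0842, 0.604 and 0 CPM to 1.12, 12.7 and 305 CPM (8.84 ± 1.75, adjusted p = 0.00199). The day 6 libraries differed widely among themselves for XDH. RHCG, an ammonia transporter of epithelia, was at 0, 0 and 0.780 CPM and then 78.3, 72.3 and 11.8 CPM (7.68 ± 1.09, adjusted p = 0.000246). The day 6 library numbered 3 was the lowest of its group for RHCG and the highest for XDH.

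CCK, the peptide hormone cholecystokinin, AFP, the fetal plasma protein alpha-fetoprotein, and IGF2BP1, an RNA-binding protein, had no count in any day 3 library. CCK was at 6.96, 2.25 and 10.25 CPM on day 6, which is at least 23.0-fold higher than a floor of 3 counts per library, but its adjusted p of 0.0391 rose above 0.05, to between 0.0528 and 0.110, when any 1 of the 6 libraries was left out. AFP was at 3.93, 5.86 and 5.27 CPM on day 6, at least 17.8-fold higher (adjusted p = 0.00357). IGF2BP1 was at 2.92, 2.73 and 1.69 CPM, at least 8.67-fold higher (adjusted p = 0.00261). SLC16A6, of the monocarboxylate transporter family, rose from 2.02, 0.905 and 2.83 CPM to 357, 642 and 105 CPM (7.57 ± 1.31, adjusted p = 0.000807). CILP2, a matrix protein known from cartilage, rose from 0.421, 0.503 and 0.390 CPM to 71.4, 42.2 and 68.3 CPM (7.08 ± 1.14, adjusted p = 0.000519). OPTC (opticin, a small leucine-rich proteoglycan, 6.97 ± 1.41, adjusted p = 0.0024) and RLBP1 (which binds retinaldehyde, 6.97 ± 1.64, adjusted p = 0.0063) complete these 10 rises.

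Most of the 10 largest falls by the same rule were of genes that were well detected on day 3. MMP7, the protease matrilysin of epithelial cells, was at 1220.4, 1466 and 150.0 CPM on day 3 and at 0.898, 1.17 and 3.20 CPM on day 6 (-9.04 ± 1.76, adjusted p = 0.00179). LCN2, a lipocalin that binds bacterial iron carriers, went from 447, 502 and 228 CPM to 2.92, 4.10 and 4.04 CPM (-6.72 ± 0.87, adjusted p = 0.000126). In both genes the day 3 library numbered 3 was the lowest of its group, and still far above every day 6 library. The urothelial membrane protein UPK1B fell from 281, 171 and 90.4 CPM to 1.68, 1.07 and 1.13 CPM (-7.12 ± 1.26, adjusted p = 0.000946). NOS1, a nitric oxide synthase, fell from 183, 144 and 62.4 CPM to 3.14, 1.17 and 1.97 CPM (-5.96 ± 0.99, adjusted p = 0.000614). NAAA, which breaks down fatty acid ethanolamides, was uneven on day 3, at 1544, 86.4 and 1295 CPM, and low on day 6, at 12.7, 15.3 and 29.6 CPM (-5.66 ± 1.13, adjusted p = 0.00219). Here the day 3 library numbered 2 was the low one.

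The pig chemokine AMCF-II, an attractant of neutrophils, was at 19.7, 47.3 and 3.31 CPM on day 3 and had 1 count in all 3 day 6 libraries together, a ratio of 685 (95% counting interval 123 to 27109, adjusted p = 0.000456). The cell surface protein FLRT3 (-5.79 ± 0.82, adjusted p = 0.000246), the hemidesmosome collagen COL17A1 (-5.40 ± 0.92, adjusted p = 0.000756), the gelatinase MMP9 (-5.33 ± 0.90, adjusted p = 0.000688) and CYP24A1, which inactivates vitamin D (-5.43 ± 1.29, adjusted p = 0.00665), also fell. CYP24A1 was at 111, 101 and 17.9 CPM on day 3 and at 1.01, 2.15 and 2.07 CPM on day 6, again with the day 3 library numbered 3 nearest to day 6. All 10 of these genes kept their calls when any 1 of the 6 libraries was left out.

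**Figure D2:**
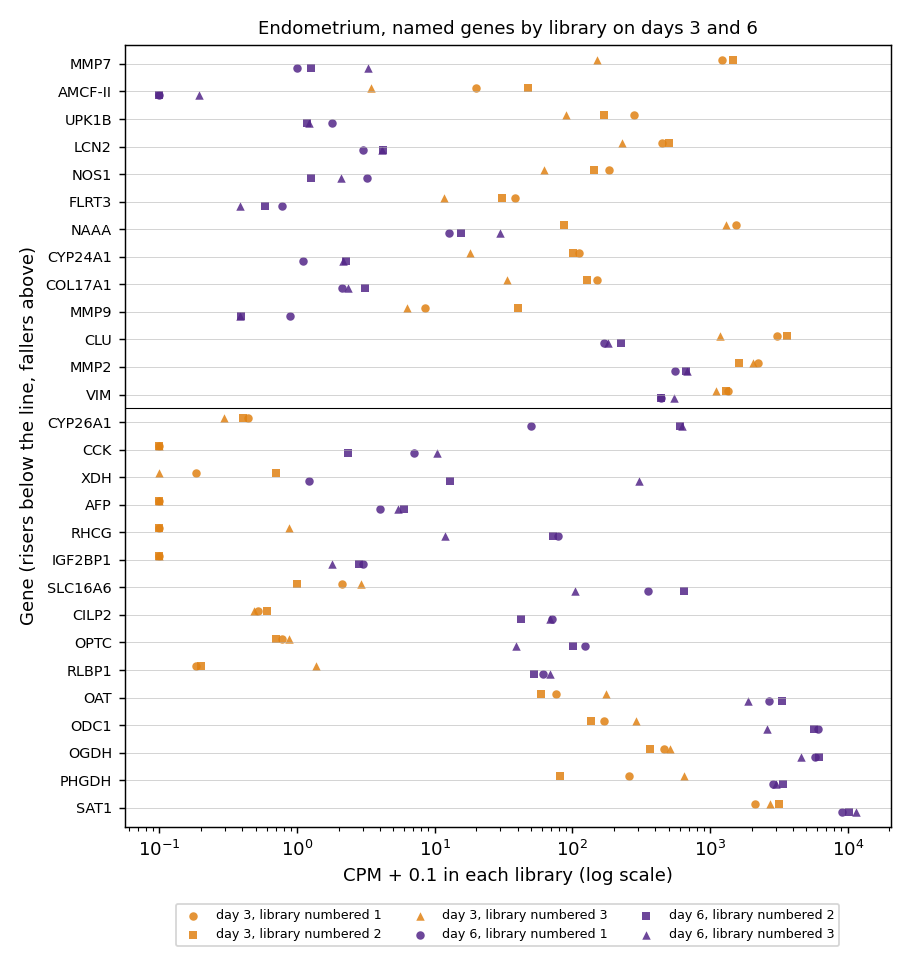
CPM + 0.1 (x axis, log scale) of the genes with the largest log2 changes or the largest changes in mean CPM, in each day 3 library (orange) and each day 6 library (purple), with the marker shape giving the library number. The genes were chosen among those whose orange and purple points do not overlap, and the orange triangle (day 3 library numbered 3) is the day 3 point nearest to day 6 in most of the falling genes.

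By mean CPM, the 5 largest rises under that rule were of enzymes of amino acid, polyamine and mitochondrial metabolism. SAT1, which acetylates spermidine and spermine, was at 2121, 3193 and 2703 CPM on day 3 and at 9014, 10151 and 11425 CPM on day 6 (1.93 ± 0.31, adjusted p = 0.00048). ODC1, the ornithine decarboxylase that makes putrescine, rose from 169, 136 and 291 CPM to 6107, 5650.3 and 2597 CPM (4.59 ± 0.58, adjusted p = 0.000112), a 24.1-fold change. OAT, which converts ornithine in mitochondria, rose from 76.0, 58.8 and 174 CPM to 2663, 3321 and 1876 CPM (4.67 ± 0.58, adjusted p = 0.000112), a 25.4-fold change. For ODC1 and OAT the day 3 library numbered 3 was the highest of day 3 and the day 6 library numbered 3 the lowest of day 6. OGDH, a subunit of the 2-oxoglutarate dehydrogenase of the citric acid cycle, went from 463, 366 and 513 CPM to 5828, 6187 and 4578 CPM (3.63 ± 0.65, adjusted p = 0.000975). PHGDH, which opens the synthesis of serine, went from 257, 81.8 and 642 CPM to 2858, 3406 and 2988 CPM (3.24 ± 0.50, adjusted p = 0.000441).

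The 5 largest falls in mean CPM under that rule were of CLU, MMP2 and VIM and of MMP7 and NAAA, given above. CLU (clusterin, a secreted chaperone) went from 3067, 3611 and 1189 CPM to 169, 224 and 183 CPM (-3.77 ± 0.50, adjusted p = 0.000151). The matrix protease MMP2 went from 2241, 1629 and 2037 CPM to 558, 667 and 679 CPM (-1.63 ± 0.26, adjusted p = 0.000453). VIM, the intermediate filament protein vimentin of stromal and other mesenchymal cells, went from 1348, 1311 and 1105 CPM to 441, 444 and 549 CPM (-1.39 ± 0.37, adjusted p = 0.0135), and its adjusted p was 0.0520 and 0.0568 without the day 6 libraries numbered 1 and 2.

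Named sets of genes were then followed, as lists of pathway members and cell markers that had a symbol in the table. Each count of called members is to be read beside the shares over all genes tested, 8.86% higher and 10% lower. Receptors of sex steroids and related hormones moved unequally. Of the 9 genes of the list of sex steroid and related receptors that were tested, 3 rose and 1 fell, with a median log2 change of -0.19. The oestrogen receptor gene ESR1 was at 545, 510.2 and 567 CPM on day 3 and at 639, 695 and 725 CPM on day 6 (0.34 ± 0.26, adjusted p = 0.395). The progesterone receptor gene PGR was at 54.6, 45.9 and 71.6 CPM and 69.8, 48.1 and 33.5 CPM (-0.19 ± 0.28, adjusted p = 0.706). Neither difference passed the test, although the libraries of the days did not overlap for ESR1, while those for PGR did. Unlike these, the membrane-associated progesterone binding proteins were higher on day 6. PGRMC1 rose from 367, 432 and 378 CPM to 1032, 1204 and 1469 CPM (1.65 ± 0.29, adjusted p = 0.000954). PGRMC2 rose from 79.4, 78.1 and 80.0 CPM to 150.2, 169 and 164 CPM (1.02 ± 0.16, adjusted p = 0.000491). GPER1, a G protein-coupled receptor that responds to oestrogen, rose from 13.6, 7.24 and 14.2 CPM to 42.1, 92.5 and 56.5 CPM (2.44 ± 0.55, adjusted p = 0.00491). In these 3 genes the groups did not overlap, and the libraries of each day lay closest together in PGRMC2.

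The glucocorticoid receptor gene NR3C1 fell (-1.04 ± 0.32, adjusted p = 0.0265), a call that was lost without the day 3 library numbered 1 or 2 or the day 6 library numbered 1 or 3 (adjusted p between 0.0739 and 0.110). The oxytocin receptor gene OXTR was at 12.0, 8.15 and 6.43 CPM and then 4.82, 2.15 and 0.752 CPM and did not pass the test (-1.80 ± 0.90, adjusted p = 0.176), although its groups did not overlap. The prolactin receptor gene PRLR did not pass (-0.71, adjusted p = 0.409). ESR2 and the luteinizing hormone receptor gene LHCGR had too few counts to be tested.

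Genes listed as responsive to progesterone or known from the luteal endometrium had 5 of 14 tested members higher and 2 lower, with a median log2 change of 0.72. HPGD, which inactivates prostaglandins, rose from 3.37, 3.02 and 10.5 CPM to 59.4, 189 and 216 CPM (4.78 ± 1.07, adjusted p = 0.00456). IHH, the hedgehog ligand of uterine epithelium, rose from 18.6, 9.76 and 30.9 CPM to 92.2, 78.7 and 157 CPM (2.47 ± 0.51, adjusted p = 0.00255). The enzymes that interconvert cortisol and cortisone moved in opposite directions. HSD11B2, which inactivates cortisol, rose from 2.61, 0.704 and 2.73 CPM to 13.9, 9.86 and 42.8 CPM (3.45 ± 0.81, adjusted p = 0.00622). HSD11B1, which regenerates it, fell from 59.7, 64.6 and 26.6 CPM to 13.35, 14.4 and 19.3 CPM (-1.68 ± 0.48, adjusted p = 0.0193). The groups did not overlap for any of these 4 genes. The HSD11B1 call was lost (adjusted p between 0.0686 and 0.0754) without the libraries numbered 1 or 2 of either day, and without the day 3 library numbered 1 or the day 6 library numbered 1 or 2 the list had 3 members higher and 0 lower.

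Genes listed as responsive to oestrogen moved both ways, with 4 of 14 higher, 7 lower and a median of -1.04. PDZK1, a scaffold protein of epithelial membranes, rose from 3.62, 2.21 and 4.68 CPM to 131, 86.9 and 28.2 CPM (4.54 ± 0.89, adjusted p = 0.00192). The growth factor gene IGF1 rose from 2.69, 3.32 and 8.58 CPM to 27.6, 37.0 and 32.6 CPM (2.74 ± 0.79, adjusted p = 0.0204). Complement C3 fell from 550.2, 491 and 201 CPM to 86.2, 67.6 and 54.8 CPM (-2.58 ± 0.49, adjusted p = 0.0016). LTF, the iron-binding protein lactoferrin, fell from 56.0, 111 and 11.1 CPM to 9.54, 3.22 and 1.504 CPM (-3.65 ± 1.04, adjusted p = 0.0194). GREB1, among the best known targets of oestrogen receptors, had a log2 change of 0.10 (adjusted p = 0.94). Without 1 library, as few as 3 members were called lower (without the day 3 library numbered 2 or the day 6 libraries numbered 2 or 3) and as few as 2 higher (without the day 3 library numbered 2). The calls of IGF1 (adjusted p up to 0.0933, without the day 3 libraries numbered 1 or 2 or the day 6 library numbered 2) and LTF (up to 0.0879, without the day 3 library numbered 2 or the day 6 libraries numbered 2 or 3) were among those lost.

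Steroid and cholesterol metabolism had 6 of 25 members higher and 1 lower, with a median of 0.69. TSPO, the outer mitochondrial membrane protein that binds cholesterol, rose from 118, 73.7 and 77.0 CPM to 558, 923 and 708 CPM (3.03 ± 0.38, adjusted p = 0.000112). SOAT1, which esterifies cholesterol for storage, rose from 38.1, 45.4 and 52.3 CPM to 244, 188 and 160.3 CPM (2.12 ± 0.35, adjusted p = 0.00063). FDPS, the farnesyl diphosphate synthase of cholesterol synthesis, rose from 110.0, 47.7 and 407 CPM to 929, 1005 and 1252 CPM (2.50 ± 0.74, adjusted p = 0.0235). In FDPS the day 3 library numbered 3 was the highest of day 3. Without it, 12 of the 25 members were called higher and the median was 1.18, while leaving out the day 3 library numbered 1 or 2 gave 4. The FDPS call was lost without the day 3 libraries numbered 1 or 2 or the day 6 library numbered 3 (adjusted p up to 0.102).

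Among genes of ion and water transport, 4 of 23 rose and 2 fell, against 8.86% higher and 10% lower over all genes tested. The median was 0.26, and the share that fell was near that over all genes. SLC26A4, the anion exchanger pendrin, rose from 2.53, 0.503 and 4.58 CPM to 19.6, 258 and 283 CPM (6.19 ± 1.16, adjusted p = 0.00144). SLC4A11, a membrane transporter of the bicarbonate transporter family, rose from 39.0, 35.7 and 34.7 CPM to 207, 193 and 109 CPM (2.22 ± 0.36, adjusted p = 0.000568). The subunits of the epithelial sodium channel went apart. SCNN1A rose (1.995 ± 0.45, adjusted p = 0.00491). SCNN1B fell from 14.4, 13.7 and 6.53 CPM to 0.112, 0.976 and 4.89 CPM (-2.50 ± 0.85, adjusted p = 0.0471), and SCNN1G had a log2 change of -1.27 (adjusted p = 0.394). The SCNN1B call was lost without the libraries numbered 1 or 2 of either day (adjusted p between 0.107 and 0.166). FXYD3, a regulator of the sodium pump, fell from 21.5, 35.6 and 13.9 CPM to 1.46, 2.25 and 0.658 CPM (-4.02 ± 0.83, adjusted p = 0.00278).

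Transporters of nutrients had 4 of 20 members higher and 1 lower, with a median of 0.38, and these 4 kept their calls without any 1 library. Beside SLC16A6, SLC27A6, a fatty acid transport protein, rose from 2.61, 4.43 and 7.70 CPM to 255, 306 and 321 CPM (5.91 ± 1.32, adjusted p = 0.00447). SLC3A1, a subunit of the transporter of cystine and basic amino acids, rose from 2.44, 3.72 and 2.34 CPM to 58.0, 118 and 91.9 CPM (4.97 ± 0.67, adjusted p = 0.000165). SLC7A11, the cystine and glutamate exchanger, rose from 0.253, 0.402 and 0.0975 CPM to 5.05, 13.3 and 1.69 CPM (4.67 ± 0.95, adjusted p = 0.00245). SLC38A4, an amino acid transporter, was the member that fell (-2.12 ± 0.48, adjusted p = 0.00483). The summed level of the list was between 862.1 and 926.3 CPM on day 3 and between 1644 and 1925 CPM on day 6. This sum includes the large rises of SLC16A6 and SLC27A6, so it does not describe the typical member.

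Of the 36 symbols listed for pig uterine secretory proteins and histotroph, 19 were found and 18 tested, so the counts cover only part of the list. Of the 18, 1 was higher and 6 were lower, with a median of -0.75. Between 4 and 8 were lower when 1 library was left out, with 8 lower and a median of -1.06 without the day 3 library numbered 3. Besides LCN2, CLU and LTF, the cysteine proteases CTSC (from 181, 146 and 141 CPM to 50.3, 45.9 and 42.0 CPM, -1.76 ± 0.46, adjusted p = 0.0126) and CTSH (-1.49 ± 0.33, adjusted p = 0.00419) fell. The galactose-binding lectin LGALS3 rose from 366, 289 and 497 CPM to 1086, 1300.1 and 609 CPM (1.38 ± 0.44, adjusted p = 0.036, and up to 0.137 without the libraries numbered 1 or 2 of either day). RBP4, the retinol carrier of pig uterine fluid, had a log2 change of 0.76 (adjusted p = 0.695) and CTSL, another lysosomal protease, one of 0.81 (adjusted p = 0.208), and neither passed.

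Extracellular matrix genes fell or did not pass: 10 of 31 were lower, 0 were higher (0 also with DESeq2) and the median was -0.68. Their summed level was between 17372 and 17975 CPM on day 3 and between 9410 and 9996 CPM on day 6, so the groups were far apart beside their spread. The proteases MMP7, MMP9, MMP2, MMP14 (-1.83 ± 0.29, adjusted p = 0.00048) and MMP11 (-1.22 ± 0.30, adjusted p = 0.00843, and 0.05004 without the day 6 library numbered 2) made up 5 of the 10. The others included fibronectin, FN1 (from 814, 842 and 588 CPM to 208, 202 and 201 CPM, -1.88 ± 0.42, adjusted p = 0.00472), the thrombospondin THBS2 (from 37.8, 42.5 and 19.9 CPM to 4.71, 9.76 and 6.49 CPM, -2.25 ± 0.40, adjusted p = 0.000883) and the crosslinking enzyme LOX (from 13.9, 10.9 and 8.38 CPM to 3.14, 3.03 and 2.07 CPM, -2.01 ± 0.42, adjusted p = 0.00312). The fibrillar collagen genes COL1A2 (-0.49, adjusted p = 0.12) and COL3A1 (-0.56, adjusted p = 0.119) did not pass. When 1 library was left out, between 8 and 10 members were lower. The summed stroma markers were lower on day 6, as given above, with 2 of 9 called. There were 0 calls without the day 6 library numbered 1 or 2, and 1 without the day 3 library numbered 1 or 3. The part of stroma in the result was not tested. COL1A2, COL3A1 and other members belong to both the stroma and the matrix list, so the sums are not separate observations. In bulk tissue, fewer cells of a type and less RNA per cell cannot be told apart.

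Cell adhesion and junction genes had 6 of 33 members higher and 6 lower, with a median of -0.18. CDH17, an intestinal cadherin, rose from 3.87, 2.72 and 4.87 CPM to 10.8, 118 and 218 CPM (4.91 ± 1.02, adjusted p = 0.00288). The tight junction gene CLDN22 rose from 6.91, 1.41 and 8.29 CPM to 98.6, 44.2 and 19.1 CPM (3.28 ± 0.75, adjusted p = 0.00535). LAMB3, a subunit of a basement membrane laminin, fell from 93.6, 73.0 and 11.5 CPM to 2.58, 2.44 and 2.35 CPM (-4.59 ± 0.93, adjusted p = 0.00241). LAMA3, the gene of another laminin subunit, had a log2 change of 1.53 and did not pass (adjusted p = 0.153). EPCAM, a marker of all epithelial cells, had a log2 change of 0.01 (adjusted p = 0.983). Without the day 3 library numbered 3, 10 members were lower, and without the day 6 library numbered 2 or 3, 3 were.

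Of 31 tested genes of WNT, hedgehog, BMP and FGF signalling, 2 rose and 11 fell, with a median of -0.48. LGR5, a receptor for R-spondins known from epithelial stem cells, fell from 67.8, 35.6 and 28.3 CPM to 3.14, 2.83 and 0.658 CPM (-4.32 ± 0.83, adjusted p = 0.00162). The WNT receptor FZD10 fell from 112, 88.9 and 40.8 CPM to 5.95, 7.13 and 10.4 CPM (-3.36 ± 0.50, adjusted p = 0.000307). SFRP2, a secreted WNT antagonist, fell from 64.2, 84.4 and 30.0 CPM to 7.07, 8.98 and 9.12 CPM (-2.82 ± 0.72, adjusted p = 0.0108). IHH and the WNT receptor FZD6 (0.69 ± 0.21, adjusted p = 0.0305) were the members that rose, and the FZD6 call held without the day 6 library numbered 3 alone (adjusted p up to 0.154 without any other). The hedgehog targets PTCH1 (0.81, adjusted p = 0.124) and GLI1 (0.86, adjusted p = 0.436) and the WNT target AXIN2 (0.06, adjusted p = 0.931) did not pass. Between 8 and 10 members were lower in the fits without 1 library.

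Growth factors and cytokines had 2 of 22 members higher (IGF1 and TGFB2, the latter 1.26 ± 0.27, adjusted p = 0.00345) and 5 lower, with a median of -0.43. Over all genes tested 8.86% were higher and 10% lower, so the share of higher members was near that of all genes. MET, the receptor of hepatocyte growth factor, fell from 124, 126 and 93.2 CPM to 38.6, 30.8 and 24.4 CPM (-1.87 ± 0.45, adjusted p = 0.00678). TGFB1 fell from 88.3, 77.4 and 60.05 CPM to 22.6, 18.6 and 24.4 CPM (-1.78 ± 0.47, adjusted p = 0.0119). The interleukin gene IL1A fell from 3.71, 8.85 and 1.75 CPM to 0.449, 0.293 and 0.940 CPM (-3.04 ± 0.86, adjusted p = 0.0185). Leaving out the day 3 library numbered 3 gave 3 members higher and 6 lower. Without the day 6 library numbered 2 the count of lower members dropped to 1, without the day 3 library numbered 2 or the day 6 libraries numbered 1 or 3 it was 3, and the calls of TGFB1 (adjusted p = 0.0567) and IL1A (up to 0.107) were among those lost.

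Many of the innate immunity and acute phase genes were lower on day 6. Of 30 tested, 16 were lower and 1 was higher, with a median of -1.58 (-1.36 with the 2 genes at 0 in a group set to their bound), against 10% lower over all genes. Between 12 and 18 were lower when 1 library was left out. The complement genes CFI (from 537, 539.9 and 314 CPM to 64.7, 53.4 and 53.4 CPM, -3.02 ± 0.39, adjusted p = 0.00012), C2 (-2.71 ± 0.43), CFB (-2.93 ± 0.43), CFD (-2.72 ± 0.64), C1QA (-2.34 ± 0.41) and C3 all fell, as did the receptors of microbial products TLR4, TLR7 and TLR9 (log2 changes between -2.97 and -2.04). The chemokine CXCL2 fell from 37.8, 53.0 and 18.2 CPM to 2.81, 2.15 and 3.57 CPM (-3.67 ± 0.72, adjusted p = 0.00185). LBP, which carries bacterial lipopolysaccharide, was at 1.09, 3.52 and 0.292 CPM on day 3 with no count on day 6, at least 5.38-fold lower than its day 3 mean against 3 counts per library (adjusted p = 0.0127, and 0.0594 without the day 3 library numbered 2). CCL28, a chemokine of mucosal epithelia, was the exception: it rose from 32.9, 34.2 and 80.8 CPM to 487, 534 and 580.1 CPM with no overlap (3.44 ± 1.13, adjusted p = 0.0395), a call lost without any 1 of the 6 libraries (adjusted p between 0.0558 and 0.137).

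Genes of interferon response and antigen presentation had 6 of 17 members lower and 1 higher, with a median of -0.61. The transcription factor IRF1 fell from 116, 109 and 74.9 CPM to 33.9, 31.2 and 32.0 CPM (-1.63 ± 0.23, adjusted p = 0.000269). The class II genes SLA-DMB (-1.87 ± 0.30, adjusted p = 0.000484), SLA-DMA (-1.63 ± 0.27, adjusted p = 0.000666) and their activator CIITA (-1.56 ± 0.33, adjusted p = 0.00303) fell, where reads of similar SLA genes could have been split by the counting. IFIT2, an interferon-induced gene, rose from 23.7, 39.3 and 28.6 CPM to 175, 136 and 124 CPM (2.25 ± 0.47, adjusted p = 0.00287), while MX1, another such gene, did not pass (-0.07, adjusted p = 0.936).

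Markers of immune and vascular cells moved with these lists. Of the 9 tested macrophage and myeloid markers, 7 were lower on day 6, among them CD68 (from 23.0, 33.1 and 12.3 CPM to 5.95, 4.98 and 5.08 CPM, -2.09 ± 0.31, adjusted p = 0.000315) and TYROBP (from 44.3, 42.8 and 25.9 CPM to 9.54, 7.22 and 5.55 CPM, -2.34 ± 0.38, adjusted p = 0.000549). Their summed level was between 238.5 and 529.7 CPM on day 3 and between 75.8 and 112 CPM on day 6. C1QA, CD14 and LYZ are members of both this list and that of innate immunity. Of 9 T and NK cell markers, 6 were lower and 1, CD247, was higher, with sums of 65.2 to 87.5 CPM and 43.3 to 64.4 CPM. Without the day 6 libraries numbered 2 and 3 in turn, 1 and 2 were lower, and without the day 3 library numbered 2, 3 were. Of 7 endothelial markers, 4 were lower, among them TEK, a receptor of angiopoietins (-1.46 ± 0.32, adjusted p = 0.00366), with sums of 480.5 to 604.1 CPM and 226.0 to 256.1 CPM. The neutrophil receptor gene CSF3R was the 1 of 4 neutrophil and eosinophil markers that fell (-3.23 ± 1.03, adjusted p = 0.0348), a call that held without the day 3 library numbered 3 alone (up to 0.119 without any other), and MPO had too few counts to be tested. Every one of the macrophage and endothelial sums lay lower on day 6 than on day 3, and the part of these cells in the falls of immune and matrix genes was not tested.

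The 3 B and plasma cell markers, 3 red blood cell markers and 5 ciliated cell markers tested had 0 called members (0, 0 and 1 at an unadjusted p under 0.05 in turn in edgeR, and 0 with DESeq2). Of the epithelial markers, GRHL2 (1.17 ± 0.19, adjusted p = 0.00048), KRT8 (1.29 ± 0.32, adjusted p = 0.00875) and FOXA2 (0.86 ± 0.27, adjusted p = 0.0328) rose and ELF3 (-2.42 ± 0.73, adjusted p = 0.0257) fell. Of these, GRHL2 kept its call without any 1 library, KRT8 lost it without the day 6 library numbered 1 (0.0566), and FOXA2 and ELF3 lost it in 4 of 6 such fits each (up to 0.163 and 0.120). HDC, which makes histamine and was listed as a mast cell marker, rose from 6.06, 1.61 and 13.5 CPM to 332, 648 and 311 CPM (5.93 ± 1.15, adjusted p = 0.00175). The mast cell receptor gene KIT had a log2 change of -0.79 (adjusted p = 0.101). Without the day 3 library numbered 3, the mast cell list had 1 member called lower beside 1 called higher. HDC was singled out after its values were seen.

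In the remaining lists fewer members passed, and some of the counts were near the shares over all genes tested (8.86% higher and 10% lower). Of the 25 genes tested for cell cycle and DNA replication, 0 were called (edgeR, with 1 at an unadjusted p under 0.05, and 0 with DESeq2), with a median of -0.17. Without the day 3 library numbered 3, where these genes were highest, 1 was called higher and the median was 0.63. Of 18 genes of prostaglandin and eicosanoid metabolism, HPGD rose while the prostaglandin receptor gene PTGER3 (-1.79 ± 0.52, adjusted p = 0.0217) and the lipoxygenase gene ALOX5 (-1.10 ± 0.34, adjusted p = 0.0279) fell, both calls being lost without single libraries of either day (adjusted p up to 0.118 and 0.0924). The prostaglandin synthases PTGS1 (-0.07, adjusted p = 0.937) and PTGS2 (-0.90, adjusted p = 0.526) did not pass. Of 19 genes of protein folding in the endoplasmic reticulum, the secretory cell transcription factors XBP1 (from 149, 131 and 163 CPM to 318, 255 and 293 CPM, 0.97 ± 0.18, adjusted p = 0.00113) and CREB3L4 (from 13.1, 20.2 and 16.2 CPM to 92.5, 96.1 and 225 CPM, 3.06 ± 0.84, adjusted p = 0.016, and up to 0.0728 without the day 3 library numbered 1 or the day 6 library numbered 3) rose. The chaperone genes HSPA5 (-0.10, adjusted p = 0.842) and HSP90B1 (0.05, adjusted p = 0.909) did not pass.

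Immediate early and heat shock genes, which respond to tissue handling, had 4 of 15 members lower, with a median of -1.08. ATF3 fell from 33.6, 94.5 and 16.3 CPM to 3.70, 4.30 and 3.57 CPM (-3.63 ± 0.77, adjusted p = 0.00327). EGR1 fell from 91.5, 215 and 29.5 CPM to 10.9, 10.3 and 14.6 CPM (-3.23 ± 0.85, adjusted p = 0.0126). FOS was at 42.4, 247 and 43.2 CPM on day 3 and 21.5, 16.2 and 6.39 CPM on day 6 (-2.92 ± 0.96, adjusted p = 0.0402, and 0.290 without the day 3 library numbered 2), and JUNB had a log2 change of -2.21 ± 0.76 (adjusted p = 0.0495). The day 3 library numbered 2 was the highest of day 3 in all 4. The EGR1 call was lost without it (0.0762) or the day 6 library numbered 2 (0.0570), that of FOS also without any 1 day 6 library, and that of JUNB without any 1 library except the day 3 library numbered 3. Among clock genes NPAS2 rose (1.46 ± 0.25, adjusted p = 0.000718) and HLF fell (-1.17 ± 0.32, adjusted p = 0.0152, and up to 0.0870 without 1 library), with 11 of 13 not called. Among 11 genes of apoptosis, PMAIP1 (-2.01 ± 0.44, adjusted p = 0.00412) and BBC3 (-1.50 ± 0.41, adjusted p = 0.0148), which promote it, fell and CFLAR, which inhibits it, rose (0.55 ± 0.17, adjusted p = 0.0272). The calls of BBC3 and CFLAR were lost without single libraries (adjusted p up to 0.0651 and 0.105).

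**Figure D3:**
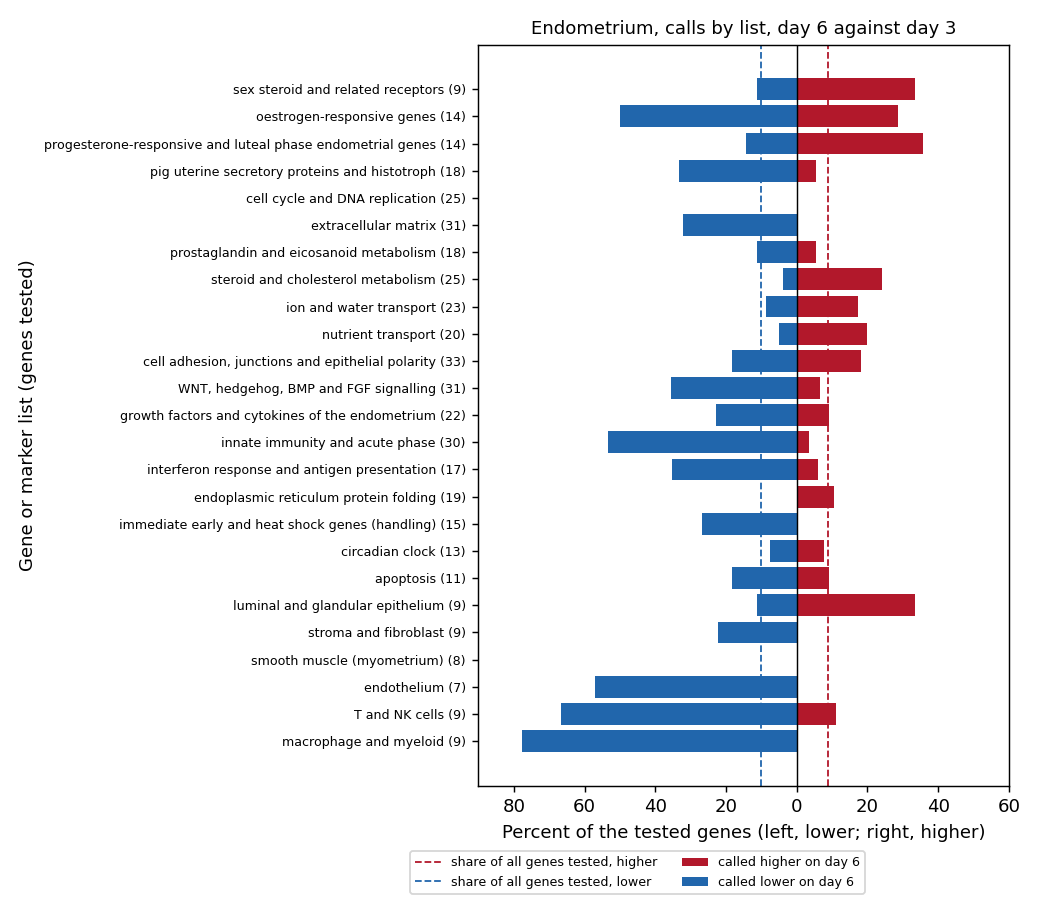
Percent of the tested genes of each list called higher (red, to the right) or lower (blue, to the left) on day 6 than on day 3, with the number tested in brackets and dashed lines at the shares over all 15341 genes (8.86% and 10%). Macrophage, T and NK cell, endothelial and innate immunity lists reach farthest to the left, and the progesterone-responsive, receptor and epithelial lists reach farthest to the right among the lists drawn.

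The levels of the other days of the cycle show where the genes that differed stood before and after. Day 9 and day 0 share no library with days 3 and 6, although the same fit estimated their spread. Of the 1359 genes higher on day 6 than on day 3, 887 were also called higher on day 9 than on day 0 (65.3%, and 48.3% of all genes called higher on day 9), 1 was lower and 471 were not called, against 12.0% higher over all genes tested. Of the 1539 genes lower on day 6, 820 were lower on day 9 than on day 0 (53.3%, and 42.7% of all called lower on day 9), 7 were higher and 712 were not called, against 12.5% lower over all genes. Without the day 3 library numbered 3, these shares were 60.5% and 51.6% of the genes then called.

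Levels were followed as a percentage of the way from the day 3 mean to the day 6 mean of log2 CPM. For the genes that rose, the median was 8.02% on day 0 and 96.0% on day 9, and then 62.5%, 38.9% and 16.5% on days 12, 15 and 18. For the genes that fell it was 24.8% on day 0 and 96.2% on day 9, followed by 77.6%, 58.3% and 37.4%. Day 9 thus lay near day 6, and day 18 lay nearer to day 3 than to day 6, for the median gene of either direction. On day 15 the library numbered 2 lay apart from the other 3, with a mean over the rising genes of 0.98 on the log2 scale above day 3, against between 0.32 and 0.47 in the others.

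Single genes followed different courses after day 6. CYP26A1 was between 505 and 858 CPM on day 9 and between 19.9 and 63.2 CPM on day 12, and between 0 and 0.447 CPM on day 18. HPGD reached between 290.2 and 364 CPM on day 9 and lay between 0.286 and 2.11 CPM on day 0. RHCG, in contrast, was already down to between 2.27 and 10.001 CPM on day 9. ODC1 lay between 2278 and 3188 CPM on day 9 and between 356 and 668 CPM on day 12, while SAT1 stayed between 5981 and 12628 CPM on day 12. MMP7 was between 220.2 and 420.5 CPM on day 0 and between 0.206 and 1.02 CPM on day 9, and between 146 and 1612 CPM on day 18. NOS1 was between 3.98 and 31.5 CPM on day 9 and between 67.7 and 788 CPM on day 12. PGR, which was not called between days 3 and 6, was between 19.1 and 29.5 CPM on day 9 and between 70.9 and 83.6 CPM on day 0 (log2 change -1.61, adjusted p = 0.000992).

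**Figure D4:**
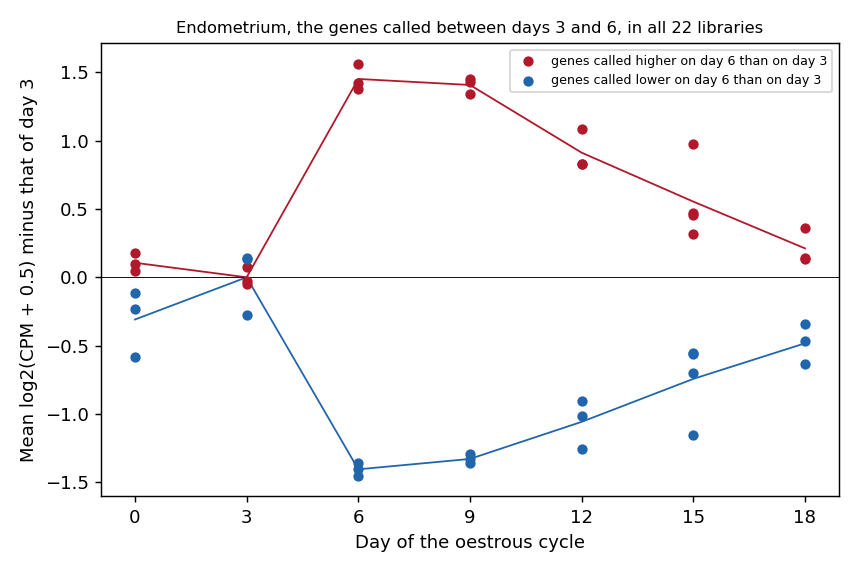
Mean log2(CPM + 0.5) over the 1359 genes called higher (red) and the 1539 called lower (blue) on day 6, minus the mean of day 3, in each of the 22 endometrium libraries (points) by day of the cycle (x axis), with lines through the daily means. The rise and fall between days 3 and 6 were used to choose the genes, day 9 stays close to day 6, and the later days return part of the way, with 1 day 15 library apart from the rest.

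In the other tissues of the series, which had fewer libraries, no gene passed between the same days. Day 6 against day 3 had 0 called genes of 15665 in the oviduct (1199 at an unadjusted p under 0.05) and 0 of 15638 in the ovary (967), in the same edgeR test with 3 and 2 oviduct libraries and 2 and 3 ovary libraries on days 3 and 6. For the 1301 genes that rose in the endometrium and were tested in the oviduct, the median log2 change there was -0.08, and for the 1279 tested in the ovary it was 0.11. For the genes that fell it was 0.07 and 0.04. The difference itself was tested by an interaction: the change from day 3 to day 6 differed between endometrium and oviduct for 1376 of 16292 genes (8.45%) and between endometrium and ovary for 468 of 16557 (2.83%). These fits treated the tissues as independent, although by the methods the tissues of a day came from the same gilts. With a replicate block within day in a fit of days 3 and 6 alone, the counts were 1526 and 980, against 1568 and 1546 without the block. The count against the oviduct was 737 or 592 without its day 6 libraries numbered 2 or 3, and that against the ovary ranged from 72 to 390 when 1 library was left out. It was 72 and 132 without the ovary day 3 libraries numbered 1 and 3, and between 220 and 271 without the endometrium day 3 libraries numbered 1 or 2, the endometrium day 6 library numbered 2 or the ovary day 6 library numbered 2.

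Among the 20 genes with the largest changes, 15 were called as changing differently in the oviduct. Of these, 6 were also called against the ovary (SLC16A6, CILP2, UPK1B, LCN2, FLRT3 and COL17A1). Genes not called are not shown to change alike. CYP26A1, AFP and IGF2BP1 against either tissue, and CCK against the ovary, had standard errors of 190 or more. With the other tissue at or near 0 counts, the test could not call them. The 20 were chosen for large changes in the same endometrium libraries, so a difference from another tissue was in part set by the choice. LCN2, which fell in the endometrium, had a log2 change of 2.61 in the oviduct, a difference of -9.34 ± 1.18 (adjusted p = 6.55e-06), and of 0.50 in the ovary, a difference of -7.26 ± 1.38 (adjusted p = 0.00383). For CILP2 the differences were 8.07 ± 1.45 (adjusted p = 0.000557) and 8.31 ± 1.52 (adjusted p = 0.00332). The metabolic enzymes ODC1 (oviduct -0.34, difference 4.92, adjusted p = 1.94e-05), OAT (oviduct -0.60, difference 5.25, adjusted p = 6.25e-06) and OGDH (oviduct -1.07, difference 4.68, adjusted p = 0.000199) also differed from the oviduct. CYP26A1 was at or under 0.492 CPM in every oviduct and ovary library of these days. Its differences had standard errors of 190 and 585, so the test could not decide on them (adjusted p = 0.996 and 0.9999). MMP2 fell by 1.63 on the log2 scale in the endometrium and had changes of -1.10 and -1.11 in oviduct and ovary, and its differences did not pass (adjusted p = 0.687 and 0.817).

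**Figure D5:**
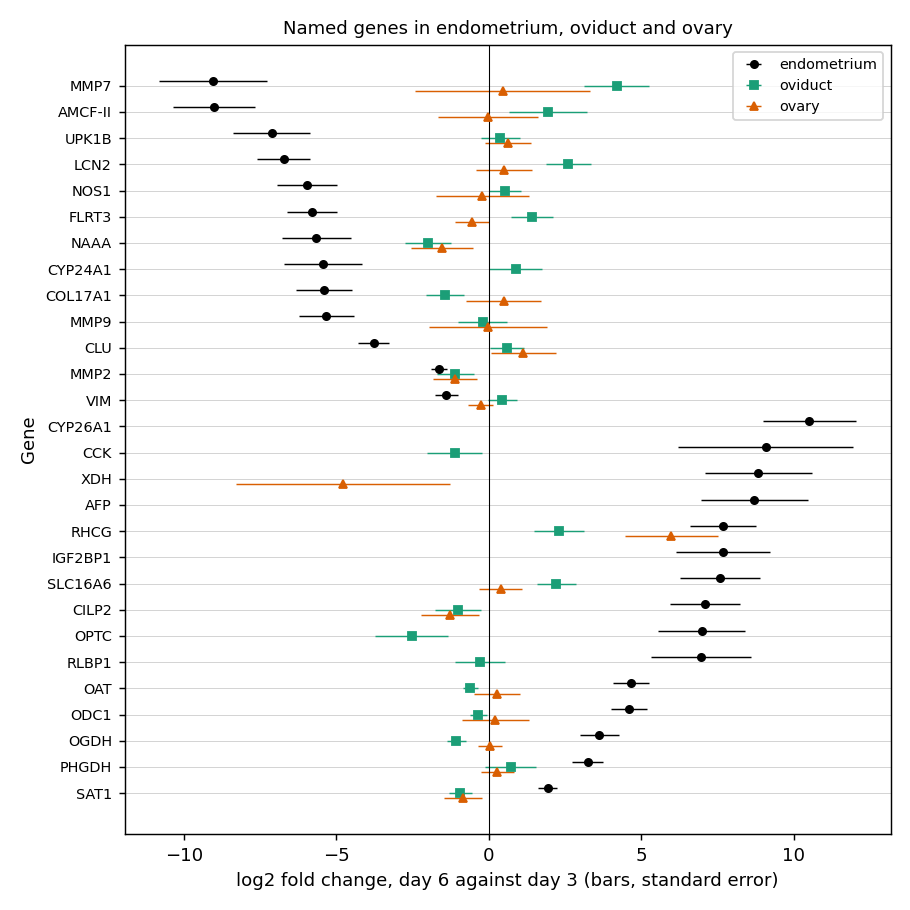
Log2 fold change of day 6 against day 3 (x axis, bars 1 standard error) for the named genes in endometrium (black circles), oviduct (green squares) and ovary (orange triangles), where a gene without a symbol in a tissue had too few counts there. The genes were chosen by their change in the endometrium. Most oviduct and ovary points sit nearer to 0 than the endometrium points, which lie to either side, and the 3 tissues lie close together for MMP2.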

How the data were processed

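RNA-seq of endometrium, ovary and oviduct from cycling gilts was deposited by the authors as 1 table of raw counts per Ensembl gene. According to the methods, reads were trimmed and mapped to the Sus scrofa 10.2 genome with Ensembl annotation; the labels name a stranded mRNA kit, the methods do not, and whether counting used strand is not given in the sources used here, so overlapping and antisense genes cannot be told apart. The submitters' processing notes also list FastQC, featureCounts, Cufflinks, Cuffdiff and edgeR. The 66 columns were matched to the groups of the 67 labelled samples by tissue and day, 0 columns belonged to other samples, and 1 sample labelled endometrium and day 12 was not used here. Gilts differed between days, so column numbers do not pair days 3 and 6. By the methods, the tissues of a day came from the same gilts, and whether a column number follows a gilt across tissues is not given in the sources used here.

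Counts of the 22 endometrium libraries were fitted with edgeR 4.0.16 (R 4.3.3; TMM scaling, filterByExpr, robust dispersions, quasi-likelihood test) with day as a factor, and p-values were adjusted by Benjamini-Hochberg over all 15341 genes tested. Genes with an adjusted p under 0.05 are called higher or lower. Changes between tissues were tested as an interaction in a fit of both tissues that treated their libraries as independent. The script was tested on simulated counts. Of the 25322 identifiers, 11804 matched a symbol in the gene name table. Named genes were the 10 largest rises and falls in log2 fold change and the 5 largest in mean CPM (called, with a symbol, no overlap, at least 10 counts in every library of the higher group), up to 4 called members of each list, and every receptor. Other genes were chosen after their values were seen, and a few members are not reported here. The members and lists were chosen with earlier results of these data known. Alternatives were DESeq2 1.42.0, DESeq2 size factors, no filter, a fit of the 2 groups alone, a replicate block, a fold threshold of 1.5, leaving out each library and, chosen after seeing the data, leaving out day 15. No sequences are printed, because no genome or sequence table was used here.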

Additional observations from a re-analysis of the deposited data

Results flagged for a closer look

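The change from day 3 to day 6 differed between endometrium and oviduct for 1376 genes and between endometrium and ovary for 468 genes, by the interaction in edgeR's quasi-likelihood test. Both comparisons use the same 6 endometrium libraries. Of the 20 genes chosen for the largest changes in these endometrium libraries, 15 were among them, so their differences were in part set by the choice. Each value that follows is the log2 change in the endometrium minus that in the other tissue. Against the oviduct it was 10.13 for CCK, 5.35 for RHCG, 5.35 for SLC16A6, 8.07 for CILP2, 9.48 for OPTC and 7.23 for RLBP1. For the genes that fell it was -13.24 for MMP7, -10.94 for AMCF-II, -7.51 for UPK1B, -9.34 for LCN2, -6.50 for NOS1, -7.21 for FLRT3, -6.32 for CYP24A1, -3.98 for COL17A1 and -5.13 for MMP9. Against the ovary it was 7.14 for SLC16A6, 8.31 for CILP2, -7.77 for UPK1B, -7.26 for LCN2, -5.27 for FLRT3 and -5.92 for COL17A1. The fitted sizes for CCK and AMCF-II depend on the prior count, since a group was at or near 0.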

How the results depend on the processing

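Under the other settings, the count of 2898 genes called between days 3 and 6 was 2902 with DESeq2 size factors, 2621 without a filter on low counts, 3478 with the DESeq2 Wald test, 3046 in a fit of the 2 groups alone and 3606 without the day 15 libraries, the last chosen after seeing the data. A test against a fold of 1.5 gave 1118. Leaving out 1 library gave between 1753 and 2801 calls, and the lowest counts were without the day 3 library numbered 1 (1753) and the day 6 library numbered 2 (1800). For day 9 against day 0 the range without 1 library was 2314 to 3078, with 2314 without the day 0 library numbered 3 and 2442 without the day 9 library numbered 3. The interaction with the oviduct ranged from 592 to 1535 calls without 1 library, and gave 1568 in a fit of days 3 and 6 alone and 1526 with a replicate block within day in that fit. That with the ovary ranged from 72 to 390, gave 830 with DESeq2, 1546 in a fit of days 3 and 6 alone and 980 with that block. The cause of these differences was not tested. Of the 83 named genes that were called, 58 kept their call under every alternative run for days 3 and 6, and none changed direction.

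By the methods the gilts of days 3 and 6 differed, so the library numbers do not pair them. Deviations from the day means had r across genes of -0.07, 0.13 and 0.07 for same-numbered libraries. For differently numbered libraries r lay between -0.19 and 0.09. With 3 libraries per day these values cannot decide on pairing. The fit with a replicate block called 2642 genes, 2103 of them among the 2898. In it OXTR passed (adjusted p = 0.0219), and SCNN1B (0.141) and CLDN22 (0.0519) did not.

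Scaling by total counts in place of TMM shifted the median log2 change by -0.19. Calls of the ovary interaction rest on 2 ovary libraries of day 3, and levels under 3 counts lie below the floor chosen here.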

Other observations

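Enzymes around ornithine and the polyamines were higher on day 6 or not called, in a list that was put together after the values of ODC1, OAT and SAT1 were seen and that was therefore not tested. Of 13 measured members, 7 were higher on day 6, 0 were lower, and the median log2 change was 1.46, against 8.86% higher over all genes. Without the 3 genes seen before the list was made, 4 of 10 were higher and the median was 0.56. ARG2, the mitochondrial arginase that makes ornithine, was at 34.9, 26.0 and 61.8 CPM on day 3 and 224, 306 and 207 CPM on day 6 (2.59 ± 0.30 SE, adjusted p = 7.19e-05 in edgeR's quasi-likelihood test). The spermine synthase SMS (1.52, adjusted p = 0.000975) and the spermine oxidase SMOX (1.46, adjusted p = 0.000499) rose too. Of the regulators of ornithine decarboxylase, the antizyme OAZ1, which lowers it, did not pass (0.36, adjusted p = 0.0603), while the antizyme inhibitor AZIN1, which protects it, rose (0.75, adjusted p = 0.00157).

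Genes of retinoid handling moved in both directions, in a list chosen in the same way after CYP26A1 and RLBP1 were seen. Of 19 measured members, 3 were higher, 6 were lower and the median was -0.34, against 8.86% higher and 10% lower over all genes. Without these 2 genes, 1 of 17 was higher and 6 were lower, with a median of -0.61. The cellular retinoic acid binding protein gene CRABP2 fell from 74.2, 58.8 and 97.0 CPM to 11.1, 10.8 and 14.3 CPM (-2.66 ± 0.56, adjusted p = 0.0029), and CRABP1 (-2.29, adjusted p = 0.00545) and the retinaldehyde reductase gene DHRS3 (-1.54, adjusted p = 0.00101) fell as well. The groups did not overlap for CRABP2. Of 9 members of serine synthesis and one-carbon metabolism, PHGDH, seen before the list was made, was the 1 that was called, and PSAT1, the next enzyme of serine synthesis, had a log2 change of 1.07 (adjusted p = 0.0852).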
